A study of Rattus norvegicus with 145 samples.

Results

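Kinesins are motor proteins that walk along microtubules, and the rat genes that encode them carry symbols beginning with Kif. The family was taken here as every row of the count tables whose symbol is Kif followed by a digit, which gave 31 of 17337 genes. From textbook roles, 9 of them were grouped as mitotic kinesins (Kif2c, Kif11, Kif15, Kif18a, Kif18b, Kif20a, Kif20b, Kif22 and Kif23), 11 as transport kinesins (Kif1b, Kif1c, Kif3a, Kif3b, Kif3c, Kif5a, Kif5b, Kif5c, Kif13a, Kif13b and Kif16b) and 10 as other kinesins (Kif2a, Kif2b, Kif9, Kif12, Kif19, Kif21b, Kif26a, Kif26b, Kif27 and Kif28p). The last row, Kif1bp, encodes a kinesin-binding protein and no motor.

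Acetamide, a small amide that causes liver tumors in rats at high doses, was given in water by oral gavage to Wistar rats (labelled Crl:WI throughout), and RNA from the left liver lobe was sequenced. Experiment A treated males aged 9 to 10 weeks for 7 days with water alone or with 30, 100, 300 and 1000 mg per kg body weight per day (mkd). Experiment B treated males and females aged 8 to 10 weeks with water or with 5 doses (300, 500, 750, 1000 and 1500 mkd), for 7 days (sampled on day 8) or 28 days (day 29). The 5 data sets held 25 rats in experiment A and 30 in each of the 4 sets of experiment B, 5 per sex, dose and time, and each control group received water by gavage. The rats of experiments A and B came from different suppliers, which cannot be told apart from the experiment.

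Reads assigned to genes ranged from 15449716 to 39986531 per rat, and between 11279 and 11497 genes per data set had enough reads to be tested. A gene was called when its fold change against the concurrent control was at least 1.5 in either direction with an adjusted p of at most 0.05 in edgeR's quasi-likelihood test. Levels are in CPM, the usual read count relative to library size, normalized for library composition, and changes are log2 fold changes with their standard error (SE). CPM were not divided by transcript length, so levels were compared between rats and not between genes. The liver identity of the tissue was checked on 10 hepatocyte markers, whose summed level was between 199217 and 384888 CPM in the control rats. In a piece of whole liver, fewer cells of a type and less RNA per cell cannot be told apart.

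In a resting liver few hepatocytes divide, and mitotic kinesins are made mostly in cells that pass through G2 and mitosis. There they separate the spindle poles (Kif11, Kif15), move and hold chromosomes (Kif22, Kif18a), shorten microtubule ends (Kif2c, Kif18b) and build the central spindle and midbody needed to split the daughter cells (Kif20a, Kif20b, Kif23). Transport kinesins work in non-dividing cells as well: the Kif5 and Kif1 motors carry vesicles and organelles outward along microtubules, and the Kif3 motors also serve intraflagellar transport in the primary cilium.

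Many genes of late cell division carry a cell cycle homology region (CHR) and CCAAT boxes just upstream of their start, and promoter sequences of 300 bases, from 250 bases before to 50 bases after the start, were taken from RefSeq on the GRCr8 build for 24 of the 31 members. The CHR was searched as TTTGAA or TTCGAA and the CCAAT box as CCAAT, each on both strands. The letters of the 2 motifs can share a base, and each was counted on its own. Among 33469 such windows of all genes, 19.7% held a CHR, 37.5% a CCAAT box and 7.95% both. Of 10 windows of the 9 mitotic kinesins (Kif2c has 2), 4 held a CHR, 5 a CCAAT box and 3 both, namely those of Kif20b, Kif22 and Kif23. Of 9 windows of transport kinesins, 0 held a CHR and 3 a CCAAT box. Of 6 windows of other kinesins, 2 held a CHR, 1 a CCAAT box and 1 both, that of Kif26b. A match is a description of letters and not a mapped binding site. Promoters of a pair of mitotic kinesins with both motifs and of a pair of transport kinesins that moved in opposite directions are shown, 5′ to 3′ in the direction of the gene, with the matches in capitals.
Kif20b, chr1:241840766-241841065, forward strand: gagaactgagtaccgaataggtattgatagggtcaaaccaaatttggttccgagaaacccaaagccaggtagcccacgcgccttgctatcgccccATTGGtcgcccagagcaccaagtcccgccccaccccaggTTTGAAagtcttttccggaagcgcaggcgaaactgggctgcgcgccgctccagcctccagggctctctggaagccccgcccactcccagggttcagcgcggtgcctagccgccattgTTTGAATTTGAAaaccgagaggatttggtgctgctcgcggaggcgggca
Kif22, chr1:191080829-191081128, reverse strand: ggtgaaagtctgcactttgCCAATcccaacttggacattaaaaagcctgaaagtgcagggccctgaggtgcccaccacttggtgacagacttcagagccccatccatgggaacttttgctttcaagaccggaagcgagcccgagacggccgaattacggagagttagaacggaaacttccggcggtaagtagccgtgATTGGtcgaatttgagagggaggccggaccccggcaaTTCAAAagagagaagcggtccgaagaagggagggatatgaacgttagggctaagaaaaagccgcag
Kif1b, chr5:165025799-165026098, reverse strand: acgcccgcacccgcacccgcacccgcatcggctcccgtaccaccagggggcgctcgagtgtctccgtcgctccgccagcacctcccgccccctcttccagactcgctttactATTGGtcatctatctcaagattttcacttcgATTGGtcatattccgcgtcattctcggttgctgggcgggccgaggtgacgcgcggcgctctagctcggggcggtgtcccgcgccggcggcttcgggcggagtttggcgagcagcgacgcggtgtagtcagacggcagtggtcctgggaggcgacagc
Kif3a, chr10:38226520-38226819, forward strand: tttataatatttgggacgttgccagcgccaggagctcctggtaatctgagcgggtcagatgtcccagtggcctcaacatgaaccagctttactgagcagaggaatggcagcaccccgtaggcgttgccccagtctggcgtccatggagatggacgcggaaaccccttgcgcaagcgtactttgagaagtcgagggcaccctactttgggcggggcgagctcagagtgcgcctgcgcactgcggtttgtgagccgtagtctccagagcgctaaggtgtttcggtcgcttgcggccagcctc
Kif20b held 3 CHR matches, of which the last pair adjoin just after the start, and a CCAAT box further upstream on the opposite strand. Kif22 held 1 CHR match shortly before the start and 2 CCAAT boxes. The Kif1b window held 2 CCAAT boxes and no CHR, and the Kif3a window held neither.

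The first question was how far each class moved with dose. All 9 mitotic kinesins were tested in each data set, and at the highest dose their fitted log2 fold changes were above 0 for all 9 in all 5 data sets. Their median log2 fold change at the highest dose was 1.84 in experiment A, 1.28 in experiment B males on day 8, 2.97 in males on day 29, 1.58 in females on day 8 and 2.43 in females on day 29. Of the 10 transport kinesins with enough reads, the median log2 fold change at the same doses was 0.27, -0.04, -0.31, 0.04 and 0.06. The median over all tested genes lay between -0.0039 and 0.070.

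Averaged over its members on the log2 CPM scale, the mitotic class in experiment A went from 0.759 ± 0.651 in controls to 2.61 ± 0.480 at 1000 mkd (SD, n = 5 rats). In females on day 29 it went from 0.103 ± 0.219 to 2.24 ± 0.686 at 1500 mkd (SD, n = 5). In males on day 29 the 1500 mkd rats spread from 0.296 to 5.54, with a mean of 2.11 ± 2.00 (SD, n = 5), so the class level overlapped that of the controls (0.465 ± 0.506). The transport class averaged 2.66 in controls and 3.08 at 1000 mkd in experiment A, 2.91 and 2.71 in males on day 29, and 2.73 and 2.90 in females on day 29 at 1500 mkd. The plot of class levels by dose shows the 2 classes in all rats.

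**Figure D1:**
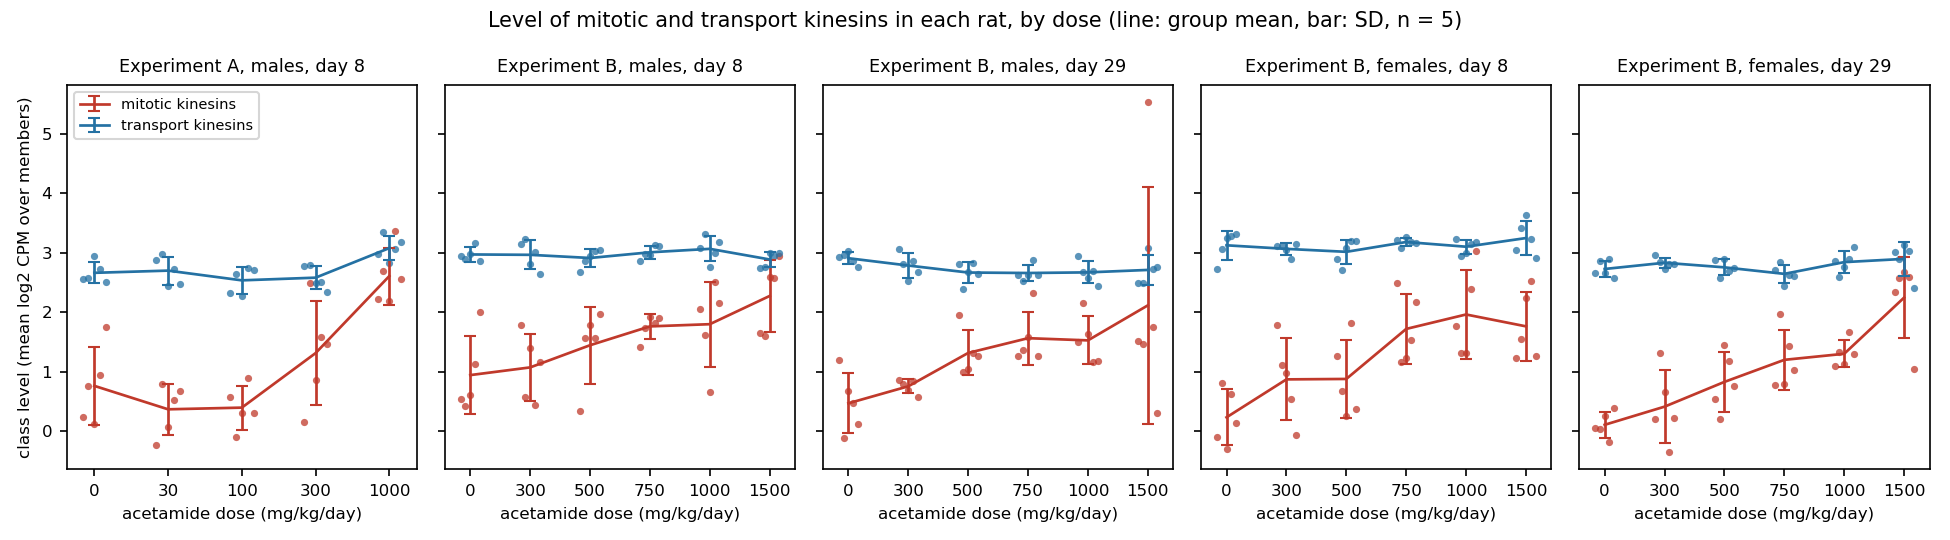
Mean log2 CPM of the mitotic and of the transport kinesins against acetamide dose (mg/kg/day) in the 5 data sets, each point being 1 rat, lines joining group means and bars giving the SD (n = 5). The mitotic class was higher at the highest dose than in controls on average in all 5, with 1 male at 1500 mkd on day 29 at 5.54, whereas transport group means moved by at most 0.42 between control and highest dose.

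In experiment A, edgeR called no mitotic kinesin at 30, 100 or 300 mkd, where 0, 0 and 1 passed an unadjusted p of 0.05 and DESeq2 called 0. Of all tested genes 0% were called in edgeR at each of these doses. Their median log2 fold changes at these doses were -0.43, -0.52 and 0.68. At 1000 mkd all 9 rose, by log2 fold changes of 1.29 to 2.40, where 14% of all tested genes were called higher. In 8 of the 9, every treated rat was above every control rat, which held for 9.01% of all tested genes.
Kif22, the chromokinesin that pushes chromosome arms toward the spindle equator, was at 0.877, 1.78, 0.756, 2.65 and 5.15 CPM in the 5 controls and at 8.47, 11.3, 8.75, 21.8 and 9.19 CPM at 1000 mkd. The groups did not overlap, with replicate 4 highest, and Kif22 rose by a log2 fold change of 2.40 (SE 0.49, adjusted p = 0.00119). Kif18b, a microtubule depolymerase of the mitotic spindle, was at 0.807, 0.835, 0.454, 0.963 and 1.9 CPM in controls and at 4.42, 5.9, 3.46, 6.75 and 5.08 CPM at 1000 mkd. All treated rats were again above all controls (log2 fold change 2.36, SE 0.45, adjusted p = 0.000748). Kif11, the motor that pushes the spindle poles apart, was at 2.42, 3.01, 2.65, 3.16 and 5.12 CPM in controls and at 7, 9.54, 7.45, 14 and 11 CPM at 1000 mkd. Kif11 rose by a log2 fold change of 1.58 (SE 0.32, adjusted p = 0.00111), without overlap. Kif20a, which recruits the chromosomal passenger complex to the central spindle, changed least of the 9 in this data set (log2 fold change 1.29, SE 0.28, adjusted p = 0.00157). One control, replicate 5, was the highest of its group for Kif22, Kif18b and Kif11, and treated replicate 4 was the highest of its group for all 9 mitotic kinesins.

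In experiment B males on day 8, edgeR called 0 mitotic kinesins at each of the 5 doses. At unadjusted p < 0.05 the counts were 0, 1, 3, 4 and 9 from 300 to 1500 mkd, and DESeq2 called 0, 0, 0, 0 and 5. Of all tested genes, 0% were called at each dose from 300 to 1000 mkd, and 0.142% were called higher and 0.177% in either direction at 1500 mkd. The 9 log2 fold changes at 1500 mkd were 0.90 to 1.87, with adjusted p between 0.0546 and 0.301. Kif18b was at 0.372, 0.657, 0.868, 1.4 and 1.92 CPM in controls and at 2.22, 2.45, 4.53, 4.08 and 5.54 CPM at 1500 mkd, without overlap (log2 fold change 1.87, SE 0.43, adjusted p = 0.0582). Kif20a was at 5.29, 5.31, 6.51, 6.44 and 9.85 CPM in controls and at 11.5, 10.8, 17.6, 16.3 and 24.8 CPM at 1500 mkd (log2 fold change 1.28, SE 0.29, adjusted p = 0.0546). These were the 2 of 9 whose groups did not overlap, against 1.45% of all tested genes. Control replicate 5 was the highest control for both genes, and without it edgeR called 5 mitotic kinesins (2 without treated replicate 2).

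In males on day 29, no mitotic kinesin was called from 300 to 1000 mkd in edgeR (0, 0, 3 and 1 at unadjusted p < 0.05, DESeq2 0 at each). Of all tested genes 0% were called at 300 and 500 mkd, 0.78% at 750 mkd and 2.76% at 1000 mkd in either direction, 0.949% higher at the last. All 9 rose at 1500 mkd, where 3.16% of all tested genes were called higher and 4.91% in either direction. DESeq2 called 5 and gave no adjusted p for the other 4, and edgeR fitted to the control and 1500 mkd groups alone called 0. The log2 fold changes were 2.00 to 3.99, the widest of the 5 data sets, but 1 rat set their size.
Kif22 was at 2.68, 0.75, 1.48, 1.55 and 0.854 CPM in controls and at 4.93, 4.82, 100.2, 4.84 and 1.65 CPM at 1500 mkd. Replicate 3 was far above the rest, and replicate 5 lay within the control range (log2 fold change 3.99, SE 0.76, adjusted p = 0.00834). Kif20a was at 7.34, 4.09, 6.2, 5.25 and 4.46 CPM in controls and at 12.6, 11.9, 170.5, 10.6 and 7.71 CPM at 1500 mkd. It was the only mitotic kinesin whose groups did not overlap in this comparison, against 2.86% of all tested genes (log2 fold change 2.97, SE 0.59, adjusted p = 0.00863). Kif11 was at 4.66, 1.84, 4.22, 2.46 and 1.97 CPM in controls and at 3.92, 4.34, 62.5, 6.08 and 1.68 CPM at 1500 mkd, so replicates 3 and 4 were above all controls and the other 3 treated rats were not (log2 fold change 2.38, SE 0.61, adjusted p = 0.022).
Replicate 3 at 1500 mkd was the highest rat of its group for all 9 mitotic kinesins. Without it, 2 of the 9 were called, Kif20a (log2 fold change 0.90, adjusted p = 0.0233) and Kif22 (log2 fold change 1.40, adjusted p = 0.0222), where 1.12% of all tested genes were called higher. The call on Kif11 was also lost without control replicate 2 or 4, and that on Kif18a, a motor that dampens chromosome movement, without any 1 of the controls. The 9 log2 fold changes without replicate 3 were 0.20 to 1.40 with a median of 0.79. In that rat the summed markers of hepatocytes were at 112583 CPM against 182452 to 224519 CPM in the other 4 rats of the group, those of endothelial cells at 248 CPM against 64.2 to 126 CPM, and the proliferation markers at 573 CPM against 25.4 to 54.3 CPM. The part of these differences in the kinesin values was not tested. By its title this rat is the male that the paper reports as an outlier in Ki67 labeling, its measure of proliferating hepatocytes. The paper found no increase in that rat's ALT, AST, liver weight or mitotic index, the share of hepatocytes in mitosis. It excluded the rat from dose-response modeling of the labeling.

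**Figure D2:**
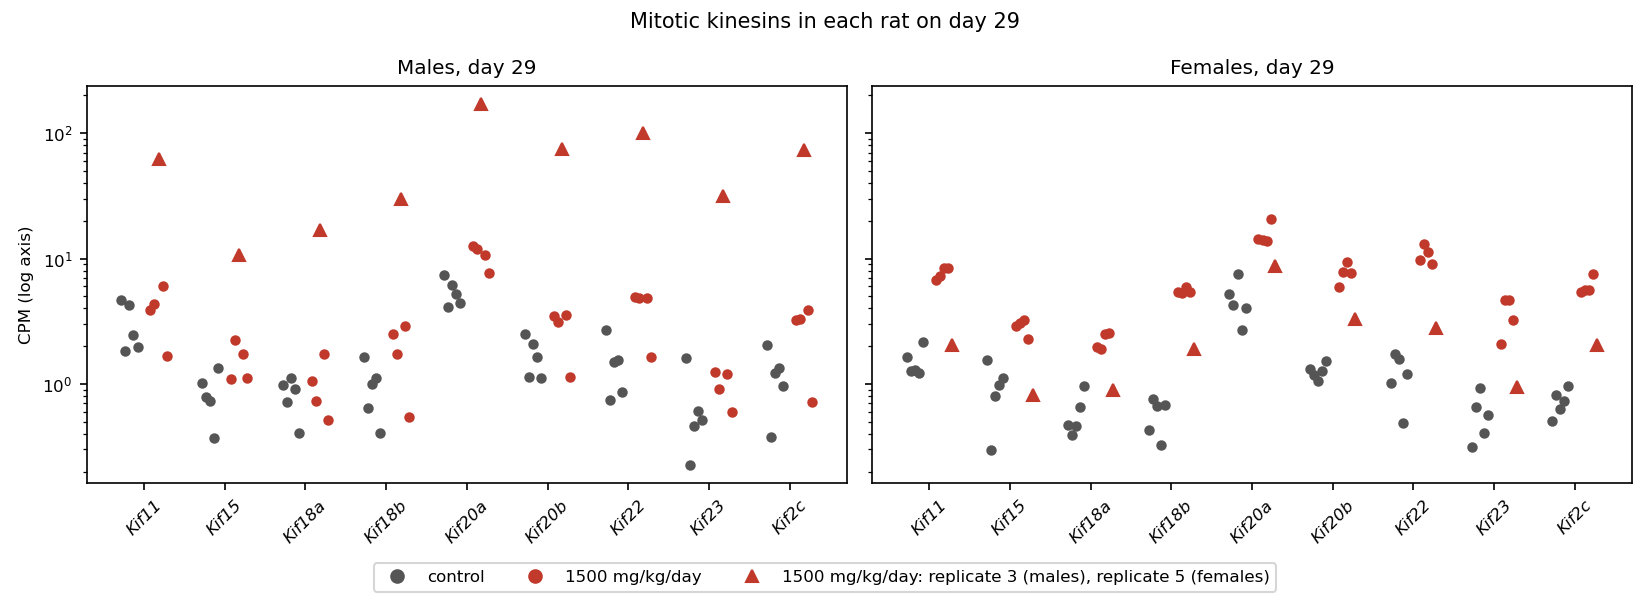
CPM (log axis) of the mitotic kinesins in each control and each 1500 mkd rat of the day 29 data sets, with 1 point per rat and triangles for treated replicate 3 (males) or 5 (females). In males the highest values come from 1 rat with Kif20a at 170.5 CPM and Kif22 at 100.2 CPM, and in females 4 of 5 treated rats were above the controls together while replicate 5 lay nearer to them.

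Among females on day 8, edgeR called 0 mitotic kinesins at 300, 500 and 750 mkd (2, 1 and 9 at unadjusted p < 0.05, DESeq2 0, 0 and 5). Of all tested genes 0.0087% were called higher in edgeR at each of these doses. At 1000 mkd 5 rose (Kif2c, Kif11, Kif18b, Kif20b and Kif22), where 1.03% of all tested genes were called higher, and at 1500 mkd edgeR called 1, Kif11, where 0.522% were. DESeq2 called 8 and 7 at these doses, and edgeR fitted to the control and 1500 mkd groups alone called 0. The shares just given are those of edgeR on all groups and were not computed for these alternatives. Kif11 was at 1.35, 2.79, 1.49, 3.42 and 2.02 CPM in controls, at 6.2, 4.92, 4.67, 8.38 and 12.5 CPM at 1000 mkd and at 3.79, 5.59, 11, 7.48 and 5.28 CPM at 1500 mkd. No treated rat at either dose fell into the control range, and the log2 fold changes were 1.74 (SE 0.37, adjusted p = 0.0195) and 1.58 (SE 0.37, adjusted p = 0.0398). Kif2c, which removes faulty attachments at the centromere, was at 0.773, 0.899, 0.51, 1.01 and 0.194 CPM in controls and at 3.85, 1.78, 2.66, 3.9 and 7.72 CPM at 1000 mkd, without overlap (log2 fold change 2.56, SE 0.61, adjusted p = 0.0312). Replicate 5 at 1000 mkd was the highest rat over all doses of the data set for 7 of the 9. The count at 1000 mkd fell from 5 to 0 without 1000 mkd replicate 5 or without control replicate 1, 3 or 5, and to 3 without 1000 mkd replicate 4. At 1500 mkd the call on Kif11 was lost without treated replicate 2, 3 or 4 or without any 1 of the controls (adjusted p up to 0.156), and without treated replicate 1 or 5 the count was 5.

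On day 29 in females the number of mitotic kinesins called went up with dose. In edgeR it was 0 at 300 and 500 mkd (1 and 6 at unadjusted p < 0.05, DESeq2 0 at both), where 0% and 0.0349% of all tested genes were called higher. It was 1 at 750 mkd (Kif18b, background 0.166% called higher), 3 at 1000 mkd (Kif2c, Kif18b and Kif22, background 1.23%) and 9 at 1500 mkd (background 9.55%). DESeq2 called 5, 6 and 9 at the last 3 doses, and edgeR fitted to the control and 750 mkd groups alone called 0 there. The median log2 fold changes over the 5 doses were 0.45, 0.75, 1.11, 1.34 and 2.43. Kif18b was at 0.428, 0.754, 0.67, 0.326 and 0.68 CPM in controls and at 5.41, 5.31, 5.91, 5.39 and 1.92 CPM at 1500 mkd. All treated rats were above all controls, with replicate 5 lowest (log2 fold change 3.05, SE 0.40, adjusted p = 4.86e-05). Kif20b, a central spindle motor, was at 1.32, 1.18, 1.05, 1.26 and 1.52 CPM in controls and at 5.9, 7.82, 9.32, 7.68 and 3.32 CPM at 1500 mkd, again without overlap (log2 fold change 2.43, SE 0.37, adjusted p = 0.000112). Kif22 was at 1.01, 1.74, 1.59, 0.489 and 1.2 CPM in controls and at 9.69, 13, 11.3, 9 and 2.77 CPM at 1500 mkd, without overlap (log2 fold change 2.92, SE 0.46, adjusted p = 0.000133). Kif11 was at 1.63, 1.28, 1.3, 1.22 and 2.16 CPM in controls and at 6.71, 7.29, 8.4, 8.39 and 2.04 CPM at 1500 mkd, so replicate 5 lay within the control range for this gene (log2 fold change 2.11, SE 0.38, adjusted p = 0.000499). In 6 of the 9 the groups did not overlap, against 3.51% of all tested genes.
The smallest of the 9 changes was that of Kif15, a spindle motor that can stand in for Kif11 (log2 fold change 1.39, SE 0.41, adjusted p = 0.0171), and its call was lost without treated replicate 2 (adjusted p = 0.0547). At 1000 mkd the count of 3 fell to 1 without treated replicate 1 and to 0 without treated replicate 2 or 4 or control replicate 1, 4 or 5. At 750 mkd the call was lost without treated replicate 2, 3, 4 or 5 or control replicate 1, 4 or 5, and the count was 2 without control replicate 3.

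A linear dose trend over all groups of a data set uses every rat, and was called at an adjusted p of at most 0.05. Mitotic kinesins trended upward in 9 of 9 cases in experiment A (23.5% of all tested genes trended upward), 7 of 9 in males on day 8 (1.98%), 9 of 9 in males on day 29 (13.9%), 8 of 9 in females on day 8 (3.76%) and 9 of 9 in females on day 29 (15.4%). Their median slopes were 2.27, 0.90, 1.96, 1.20 and 1.52 log2 units per 1000 mkd. DESeq2 called the trend in males on day 29 for 2 of the 9 and gave no adjusted p for the other 7. The exceptions in edgeR were Kif15 (adjusted p = 0.11) and Kif23, a midzone motor required for cytokinesis (adjusted p = 0.0709), in males on day 8 and Kif20a in females on day 8 (adjusted p = 0.093). Without 1500 mkd replicate 3 the count in males on day 29 was 5, and without 1500 mkd replicate 3 in females on day 8 it was 4.
Of the 10 transport kinesins, 5 trended upward and 1 downward in experiment A, 0 in males on day 8 (edgeR, 4 at unadjusted p < 0.05, DESeq2 0), 0 upward and 3 downward in males on day 29, 1 upward in females on day 8 and 2 upward in females on day 29. The downward background shares were 22.4%, 0.54%, 10.6%, 1.69% and 11.9%, and 2.52% of genes trended in either direction in males on day 8.

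**Figure D3:**
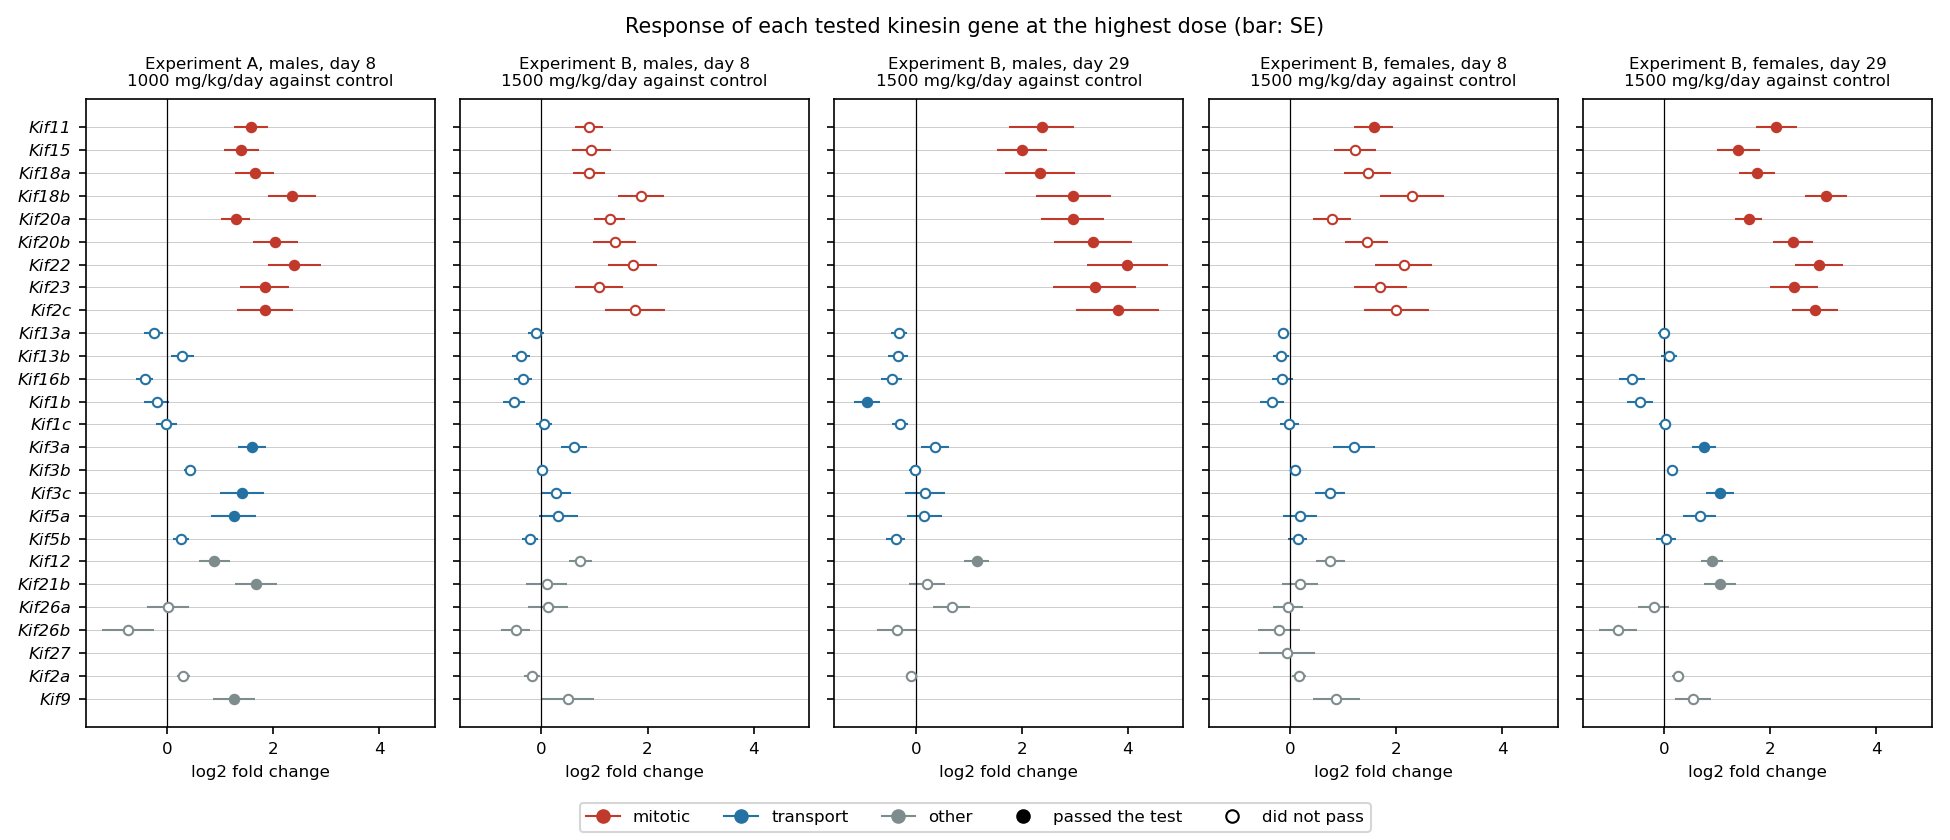
Log2 fold change against control at the highest dose (1000 mkd in experiment A, 1500 mkd in experiment B) for each tested kinesin in the 5 data sets, grouped by class, with SE bars and filled symbols where the gene was called. All mitotic kinesins lie above 0 in every data set, whereas transport and other kinesins lie on both sides of 0.

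Transport kinesins were called in 3 of the 5 data sets at the highest dose. In experiment A edgeR called 3 higher and 0 lower (DESeq2 called 3 in all), where 14% of all tested genes were called higher and 7.45% lower.
Kif3a, a subunit of the heterotrimeric kinesin-2 of cilia, was at 1.33, 1.2, 1.78, 1.29 and 1.51 CPM in controls and at 2.95, 7.77, 3.05, 4.54 and 3.15 CPM at 1000 mkd of experiment A. The groups did not overlap, with replicate 2 highest (log2 fold change 1.60, SE 0.26, adjusted p = 0.000251). Its partner subunit Kif3b was at 14.5, 14.7, 15, 14 and 12.3 CPM in controls and at 18.3, 23.8, 16.6, 17.4 and 18.8 CPM. All treated rats were above the controls, but the log2 fold change of 0.43 (SE 0.10, adjusted p = 0.00402) was below the fold needed for a call. Kif3c, a further kinesin-2 motor, was at 0.316, 0.29, 0.643, 0.361 and 0.459 CPM in controls and at 0.737, 1.7, 0.325, 1.98 and 0.709 CPM at 1000 mkd, with replicate 3 inside the control range (log2 fold change 1.40, SE 0.42, adjusted p = 0.014). Kif5a, a kinesin-1 heavy chain best known from neurons, was at 0.0351, 0.29, 0.34, 0.421 and 0.328 CPM in controls and at 0.737, 0.931, 0.562, 0.32 and 0.856 CPM at 1000 mkd. Replicate 4 overlapped the controls, and Kif5a rose with few reads per rat (log2 fold change 1.26, SE 0.42, adjusted p = 0.0277).
The calls on Kif3c and Kif5a were lost without treated replicate 2 (the count of 3 then fell to 1). The call on Kif3c was also lost without treated replicate 4 (adjusted p up to 0.0595), and that on Kif5a without treated replicate 5 or control replicate 1 or 2 (adjusted p up to 0.0813). Treated replicate 2 had the largest normalization factor of the data set (1.905).

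At 1500 mkd on day 29 in females the same test called 2 of 10 transport kinesins, Kif3a and Kif3c, higher, where 9.55% of all tested genes were. Fitted to the control and 1500 mkd groups alone, edgeR called 0 (DESeq2 called 2). Kif3a was at 1.36, 1.44, 1.8, 1.79 and 1.48 CPM in controls and at 3.01, 3.41, 3.31, 2.36 and 1.06 CPM at 1500 mkd. Replicate 5 was below all controls and the other 4 above them (log2 fold change 0.75, SE 0.23, adjusted p = 0.024). The call was lost without treated replicate 1, 2 or 3 or control replicate 1 or 5 (adjusted p up to 0.093). Over all doses Kif3a also trended upward in females on day 8, with a slope of 0.91 log2 units per 1000 mkd (adjusted p = 0.0163). Kif3c was at 0.272, 0.426, 0.545, 0.367 and 0.24 CPM in controls and at 1.01, 0.869, 0.745, 0.741 and 0.468 CPM at 1500 mkd (log2 fold change 1.05, SE 0.26, adjusted p = 0.00662). Of its treated rats only replicate 5 lay within the control range. The count of transport kinesins at this dose was 1 whenever 1 of those 5 rats was left out.

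In males on day 29 the transport call went the other way. Kif1b, which carries synaptic vesicle precursors and mitochondria, fell at both 1000 and 1500 mkd, where 1.81% and 1.76% of all tested genes were called lower. It was at 52.8, 63.2, 57.2, 51.2 and 34.5 CPM in controls, at 40.3, 20.6, 20.5, 25.7 and 20.1 CPM at 1000 mkd and at 23.7, 19.5, 39.3, 23.9 and 30.3 CPM at 1500 mkd. Control replicate 5 overlapped the treated rats and the other 4 controls did not (log2 fold change -1.03, SE 0.26, adjusted p = 0.0312 at 1000 mkd and -0.92, SE 0.25, adjusted p = 0.0301 at 1500 mkd). The call at 1500 mkd was lost without treated replicate 1 or 2 or control replicate 2 or 3 (adjusted p up to 0.0782), and that at 1000 mkd without treated replicate 2, 3 or 5 or control replicate 2. Without treated replicate 1 at 1000 mkd 4 transport kinesins were called, and the share of all tested genes called was not computed there. Without replicate 3 at 1500 mkd 2 were called, Kif1b and Kif5b, both lower. In that fit 6.08% of all tested genes were called in either direction and 1.12% higher, against 4.91% and 3.16% with all rats.
Kif1b trended downward in males on day 29 with a slope of -0.64 log2 units per 1000 mkd (adjusted p = 0.00486). Its slopes in experiment A, males on day 8, females on day 8 and females on day 29 were -0.21, -0.30, -0.24 and -0.36. None of these passed (adjusted p = 0.431, 0.167, 0.323 and 0.075). The difference of its responses between the sexes at 1500 mkd on day 29 was not called in edgeR (adjusted p = 0.512). Kif13a and Kif16b, both endosomal motors, also trended downward in males on day 29 (adjusted p = 0.036 and 0.0186), with slopes of -0.23 and -0.38 log2 units per 1000 mkd. Kif16b also trended downward in experiment A (-0.50 per 1000 mkd, adjusted p = 0.00505). At the highest dose its log2 fold changes of -0.42 in experiment A and -0.61 in females on day 29 did not pass (adjusted p = 0.0503 and 0.0832).
Kif1c, a motor of Golgi and integrin vesicles, was at 102, 71, 102, 104 and 75.4 CPM in controls of experiment A and at 86.6, 87.1, 98.5, 89 and 87.4 CPM at 1000 mkd, so the treated rats lay within the control range. Its log2 fold changes at the highest dose in the 5 data sets lay between -0.30 and 0.05, and none passed the test. No transport kinesin was called at 1500 mkd in males or females on day 8 in edgeR (4 and 2 at unadjusted p < 0.05), and DESeq2 called 0 in both. Of all tested genes edgeR called 0.177% and 0.705% there in either direction. Kif5c was not tested in any data set, with at most 21 reads in a rat.

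**Figure D4:**
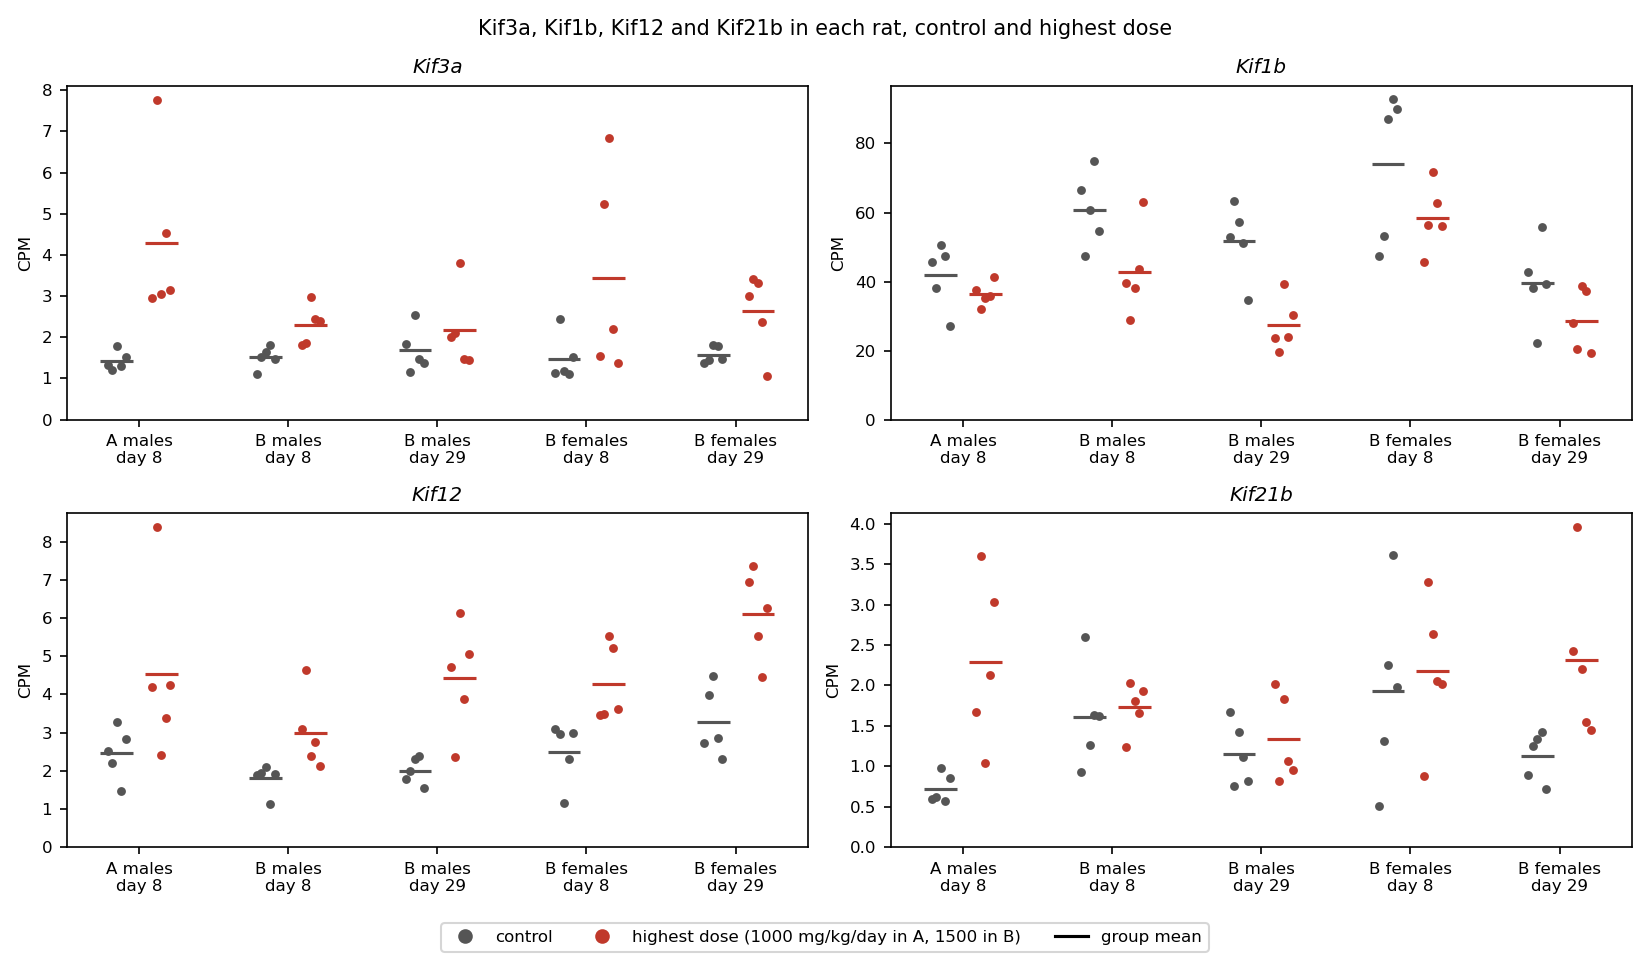
CPM of Kif3a, Kif1b, Kif12 and Kif21b in each control and each highest-dose rat of the 5 data sets, with 1 point per rat and bars at group means. All treated rats were above the controls for Kif3a and Kif21b in experiment A and for Kif21b in females on day 29. Kif1b was called lower only in males on day 29, though its slope with dose was below 0 in all 5 data sets. Kif12 was higher than control on average in all 5 data sets.

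Among the other kinesins, 5 to 7 of 10 were tested per data set, and Kif2b, Kif19 and Kif28p in none. Kif12, a kinesin of epithelial cells of kidney and bile duct, trended upward in all 5 data sets with slopes of 0.77, 0.48, 0.85, 0.53 and 0.65 log2 units per 1000 mkd in experiment A, males on day 8, males on day 29, females on day 8 and females on day 29 (adjusted p = 0.00734, 0.0439, 0.000149, 0.0349 and 0.000128). In males on day 29 it was at 1.77, 1.99, 2.31, 2.39 and 1.56 CPM in controls and at 4.73, 2.37, 6.13, 3.88 and 5.05 CPM at 1500 mkd. Only replicate 2 lay within the control range (log2 fold change 1.15, SE 0.24, adjusted p = 0.00911). In females on day 29 it was at 2.72, 4, 4.48, 2.85 and 2.32 CPM in controls and at 6.94, 7.36, 5.55, 4.45 and 6.26 CPM at 1500 mkd, with replicate 4 overlapping the controls (log2 fold change 0.90, SE 0.21, adjusted p = 0.00391). In experiment A it was at 2.53, 2.21, 3.29, 1.48 and 2.82 CPM in controls and at 4.19, 8.38, 2.42, 3.39 and 4.25 CPM at 1000 mkd, with replicate 3 inside the control range (log2 fold change 0.89, SE 0.29, adjusted p = 0.0258). That call was lost without treated replicate 2 or control replicate 2 or 4 (adjusted p up to 0.16). At 1000 mkd in males on day 29 it was at 3.99, 4.16, 3.5, 3.4 and 3.94 CPM, above all 5 controls (log2 fold change 0.92, adjusted p = 0.0374), and this call was lost without treated replicate 2, 3 or 5 or any 1 of the controls. On day 8 of experiment B Kif12 was at 1.9, 1.94, 2.1, 1.12 and 1.92 CPM in control males and at 3.08, 4.65, 2.4, 2.74 and 2.12 CPM at 1500 mkd, and at 3.09, 2.95, 1.15, 2.31 and 2.99 CPM in control females and at 3.46, 3.49, 5.53, 5.23 and 3.62 CPM at 1500 mkd. Neither pair of groups overlapped, and its log2 fold changes there, 0.73 in males and 0.76 in females, did not pass (adjusted p = 0.113 and 0.153). Of 4 cholangiocyte markers 1 was called higher at 1500 mkd on day 29 in each sex, where 3.16% (males) and 9.55% (females) of all tested genes were. The summed level of these markers was at 7.01 to 17.5 CPM in control males and 14.1 to 31.6 CPM in treated males, and at 9.64 to 19.1 and 15.2 to 22.6 CPM in females. Their part in the Kif12 values was not tested.
Kif21b, a motor that pauses microtubule growth and is expressed in lymphocytes and neurons, was at 0.596, 0.617, 0.983, 0.572 and 0.853 CPM in controls of experiment A and at 1.67, 3.6, 1.03, 2.14 and 3.03 CPM at 1000 mkd. All treated rats were above the controls (log2 fold change 1.67, SE 0.39, adjusted p = 0.0032). At 1500 mkd in females on day 29 it was at 2.43, 3.96, 2.21, 1.55 and 1.45 CPM against 0.894, 1.25, 1.34, 1.43 and 0.72 CPM in controls, without overlap (log2 fold change 1.05, SE 0.31, adjusted p = 0.0173), and the call was lost without treated replicate 2 or control replicate 5 (adjusted p up to 0.103). Kif9, a ciliary kinesin, was called higher in experiment A from low counts (0.113 to 0.263 CPM in controls and 0.34 to 0.703 CPM at 1000 mkd, log2 fold change 1.25, SE 0.39, adjusted p = 0.0187), and lost the call without treated replicate 2 or control replicate 3 (adjusted p up to 0.07). Without treated replicate 2, 1 of these 3 other kinesins was called in experiment A. Kif26b, an atypical kinesin of developing tissue, trended downward in females on day 29 (slope -0.78 log2 units per 1000 mkd, adjusted p = 0.00755). Kif2a, a depolymerase of interphase and spindle microtubules, trended slightly upward in experiment A and in females on day 29 (slopes 0.26 and 0.20, adjusted p = 0.0476 and 0.0249).

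Whether the response differed between experiments, sexes and times was tested as an interaction at matched doses. At 1000 mkd on day 8, the response of males in experiment A was larger than in experiment B for Kif21b (difference of log2 fold changes 1.82, SE 0.55, adjusted p = 0.0354) and Kif3a (1.12, SE 0.35, adjusted p = 0.0419), where 7.48% of all tested genes had a called difference. These were 1 of 7 other and 1 of 10 transport kinesins, and with 0 of 9 mitotic ones the family's share was near that of all genes. In experiment B at that dose Kif3a was at 2.35, 3.39, 0.822, 2.09 and 1.72 CPM (log2 fold change 0.47) and Kif21b at 1, 2.44, 1.08, 0.897 and 1.8 CPM (log2 fold change -0.16), neither of which passed the test. Leaving out single rats lost the Kif21b difference in 10 of 20 cases and the Kif3a difference in 13 of 20, with differences of 1.57 to 2.08 and 0.80 to 1.35. The mitotic kinesins had a median difference of 1.02 between the experiments, with 3 of 9 at unadjusted p < 0.05 and 0 called (smallest adjusted p = 0.108).
For the other 4 interactions edgeR and DESeq2 both called 0 kinesins. The mitotic median difference was 1.66 for males on day 29 against day 8 at 1500 mkd (6 at unadjusted p < 0.05, adjusted p = 0.988), -0.88 for females against males on day 29 (1 at unadjusted p < 0.05, smallest adjusted p = 0.274), 0.43 for females against males on day 8 (0 at unadjusted p < 0.05) and 0.75 for females on day 29 against day 8 (0). When treated replicate 3 was left out, the median mitotic log2 fold change of males on day 29 was 0.79 instead of 2.97. That was below the 1.28 of males on day 8 and the 2.43 of females on day 29. The median differences themselves were not computed in this setting. Without 1500 mkd replicate 3 of the males on day 29, 4 kinesins had a called difference between the sexes on day 29. With all rats 0.0688% of all tested genes had such a difference, and the share without that rat was not computed.

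The proteins that work with these motors were listed by role. Of 23 tested spindle and midzone partners, 22 were called higher in experiment A, 2 in males on day 8, 22 in males on day 29, 1 in females on day 8 and 21 in females on day 29 at the highest dose. Of 23 tested transport partners (kinesin light chains, adaptors, dynein subunits), 2 rose and 2 fell in experiment A, 1 rose in females on day 29 and edgeR called 0 in males on day 8, males on day 29 and females on day 8 (4, 3 and 3 at unadjusted p < 0.05; not run in DESeq2). Of all tested genes 14% were called higher and 7.45% lower in experiment A, and 9.55% and 3.54% in females on day 29, so the transport partner counts were near or below these shares. In males on day 8, males on day 29 and females on day 8, 0.142%, 3.16% and 0.522% of all tested genes were called higher. In either direction these shares were 0.177%, 4.91% and 0.705%. Without replicate 3 of the males on day 29 at 1500 mkd, a setting chosen after the data were seen, 6 spindle and midzone partners and 1 transport partner were called, and 0 of 5 proliferation markers instead of 3. In that setting 1.12% of all tested genes were called higher and 6.08% in either direction.
Kifc1, a minus-end directed kinesin that bundles spindle microtubules and whose symbol the family rule did not take, was at 0.842, 1.71, 1.02, 2.26 and 4.86 CPM in controls and at 5.64, 8.03, 4.7, 12.2 and 6.89 CPM at 1000 mkd of experiment A, overlapping by 1 treated rat below the highest control. It rose in 4 data sets, with log2 fold changes of 1.80 in experiment A, 1.96 in males on day 8 (adjusted p = 0.0358), 3.24 in males on day 29 and 2.64 in females on day 29. The call in males on day 8 was lost in 7 of 10 cases when 1 rat was left out (adjusted p up to 0.102). Tpx2, the activator of Aurora A that also restrains Kif11 on the spindle, had log2 fold changes of 2.01, 1.54, 2.95 and 2.13 in those 4 data sets, and its call in males on day 8 (adjusted p = 0.0333) was lost in 7 of 10 such cases (adjusted p up to 0.0912). Prc1, which bundles the midzone microtubules that Kif20a and Kif23 use, had log2 fold changes of 2.46, 1.72, 3.63, 1.92 and 3.14 in the 5 data sets in the order above, Aurkb, the kinase of the chromosomal passenger complex, 2.03, 1.82, 3.53, 1.71 and 3.11, and Racgap1, the partner of Kif23 in centralspindlin, 2.16, 1.89, 3.93, 1.45 and 3.29. All 3 were called in experiment A and in both sexes on day 29, and none on day 8 of experiment B (smallest adjusted p = 0.0617, for Aurkb in males). The calls in males on day 29 on Kifc1, Tpx2, Prc1, Racgap1 and Mki67 were lost without replicate 3. Mki67, a marker of cycling cells, was at 4.28, 4.46, 5.2, 4.24 and 6.08 CPM in controls and at 33.8, 31.3, 37.6, 34.8 and 10.1 CPM at 1500 mkd in females on day 29, with replicate 5 lowest as for the kinesins (log2 fold change 2.61). Klc4, a kinesin light chain, was at 67.2, 54.9, 87.2, 55.5 and 58.9 CPM in controls and at 46.6, 38.5, 44.1, 45.9 and 49.2 CPM at 1500 mkd in the same females. All treated rats were below all controls, and the log2 fold change of -0.53 (adjusted p = 0.0115) was below the fold needed for a call. Neither the light chain Klc1 nor Kifap3, the cargo-binding subunit of the Kif3 motors, was called at a highest dose, with log2 fold changes of -0.14 to 0.19 and -0.08 to 0.28.

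Markers of other cell types moved in the same groups. In experiment A at 1000 mkd, 9 of 9 T and NK cell markers, 6 of 10 macrophage and 4 of 6 endothelial markers were called higher, and 6 of 10 hepatocyte and 2 of 6 erythroid markers lower, against 14% of all tested genes called higher and 7.45% lower. The summed T and NK markers were at 25.6 to 32.7 CPM in controls and 45.3 to 79.9 CPM at 1000 mkd, and the summed hepatocyte markers at 255032 to 339762 and 77463 to 248266 CPM. In females on day 29 at 1500 mkd, 3 of 8 T and NK, 4 of 10 macrophage and 3 of 6 endothelial markers were called higher, 4 of 10 hepatocyte markers lower and 1 higher, against 9.55% higher and 3.54% lower. Stellate cell markers were called higher for 1 of 8 in experiment A and 2 of 8 in these females. The summed T and NK markers were at 22 to 50.7 CPM in controls and 40.3 to 77.6 CPM at 1500 mkd, and macrophage markers at 1007 to 1244 and 1151 to 2269 CPM. In males and females on day 8 of experiment B edgeR called 0 of the T and NK, macrophage, endothelial, hepatocyte and erythroid markers at 1500 mkd (1 and 5 in all at unadjusted p < 0.05; not run in DESeq2). For males on day 29 it called 1 of 10 hepatocyte markers lower at 1500 mkd, where 1.76% of all tested genes were called lower. At 1000 mkd it called 2 of 6 T and NK markers higher, where 0.949% of all tested genes were. Over all doses of that data set, 5 of 8 stellate, 4 of 10 macrophage, 3 of 4 cholangiocyte and 2 of 6 T and NK markers trended upward and 3 of 10 hepatocyte markers downward, where 13.9% and 10.6% of all tested genes did. The part of these cells in the kinesin changes was not tested. Of the listed markers, Hba1 and Gata1 were at 0 reads in every rat.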

How the data were processed

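RNA from the left liver lobe of 145 rats was sequenced (TruSeq Stranded mRNA, NextSeq 500). The authors trimmed the reads with Trimmomatic, aligned them to rn6 with Bowtie2 and counted them per gene with HTSeq, and the deposited values are these raw counts. Whether counting used strand is not given in the sources used here. The RefSeq gene table lists pseudogenes of Kif1c, Kif11, Kif13a and Kif18b, with which reads could be shared. HTSeq's summary rows, 35.5% to 67.1% of all counts in the experiment B tables, were removed. The day 29 control males were placed in experiment B by their titles, although another label names the other experiment.

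Each data set was fitted on its own in edgeR 4.0.16 (R 4.3.3) with filterByExpr, TMM factors and glmQLFTest over all dose groups, with Benjamini-Hochberg adjustment over all tested genes. A call needed a fold change of at least 1.5 and an adjusted p of at most 0.05. SE is the absolute log2 fold change divided by the square root of F. Levels on the log2 CPM scale used a prior count of 2, which did not enter the fold changes of the test. Trends used dose as a number. Interactions were fitted over all rats of both data sets joined, and the difference was tested at the matched dose. DESeq2 1.42.0 and the other alternatives are given in the closing section. The scripts were tested on simulated counts. The design gives 5 rats per group as biological replicates.

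The members, classes and gene lists were chosen with earlier results of these data known. Genes named by rule were every mitotic kinesin, every other member called at a highest dose or in an interaction, the 3 transport kinesins with the highest mean CPM, and 9 listed partners with Mki67. Kif2a, Kif3b, Kif16b and Kif26b were named after their values were seen. No column of per-sample values was left out. Cenpe, which is among the 9 listed partners, is not reported here.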

Additional observations from a re-analysis of the deposited data

Results flagged for a closer look

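Single rats stood apart from the other 4 of their group in 24 of 238 groups examined, by a gap divided by the range above 0.71 (Dixon's critical value for 5 samples), where chance gives about 1 in 20 groups. Gap and range were taken on the log2 CPM scale, whereas the values of genes are given here in CPM. Most belonged to 2 animals. In males at 1500 mkd on day 29, replicate 3 was high for Kif20a (170.5 CPM), Kif22 (100.2 CPM), Kif20b (74.77 CPM), Kif23 (31.58 CPM) and the mitotic class level (5.538 on the log2 CPM scale). In females at 1500 mkd on day 29, replicate 5 was low for Kif11 (2.043 CPM), Kif2c (2.043 CPM), Kif22 (2.766 CPM), Kif18b (1.915 CPM), Kif18a (0.8937 CPM), Kif15 (0.8085 CPM), Kif5a (0.2979 CPM) and the mitotic class level (1.036).

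In experiment A at 1000 mkd, replicate 4 was high for Kif20a (27.79 CPM) and Kif2c (11.48 CPM), replicate 3 was high for Kif1c (98.55 CPM), and in its controls replicate 1 was low for Kif5a (0.03508 CPM). In males on day 8, replicate 1 at 1500 mkd was set apart for Kif15 (0.8635 CPM), replicate 1 at 500 mkd for the mitotic class level (0.329) and control replicate 4 for Kif12 (1.121 CPM). In females on day 8, replicate 4 at 1500 mkd was high for Kif20a (16.09 CPM) and control replicate 3 was low for Kif18a (0.255 CPM). Control replicate 2 of the females on day 29 was set apart for Kif13a (40.64 CPM), and replicate 4 of the males at 750 mkd on day 29 for the transport class level (2.885).

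The response at 1000 mkd on day 8 differed between males of experiments A and B, by the interaction test, for Kif21b (difference of log2 fold changes 1.818) and Kif3a (1.116), 1 of 7 other and 1 of 10 transport kinesins tested, where 7.48% of all tested genes had such a difference. The causes of these differences were not tested.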

How the results depend on the processing

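Reads per rat limit Kif5a, Kif9, Kif3c and the mitotic kinesins of control rats, most of which rest on a few CPM. With DESeq2's Wald test the mitotic count was 5 at 750 and 6 at 1000 mkd in females on day 29, 5, 8 and 7 at 750, 1000 and 1500 mkd in females on day 8, and 5 at 1500 mkd in males on day 8. In males at 1500 mkd on day 29 it was 5, where 4 adjusted p were not given by DESeq2, and the trend count there was 2 for mitotic (7 not given) and 5 for transport kinesins. DESeq2 called 2 transport kinesins at 750 mkd in males on day 29. Fitting the control and each dose alone gave mitotic counts of 5 at 1000 and 0 at 750 mkd in females on day 29, 0 at 1500 and 3 at 750 mkd in females on day 8, and 4, 0 and 1 at 1000, 1500 and 750 mkd in males on day 29. The same setting gave 1 other and 0 transport kinesins at 1500 mkd in females on day 29 and 1 transport kinesin at 500 mkd in males on day 29. DESeq2 size factors in edgeR gave 1 mitotic kinesin at 1500 mkd in males on day 8. The downward transport trends in males on day 29 numbered 5 with DESeq2 size factors in edgeR, with no filter on low counts or with the rank of the dose. The interaction count between experiments was 1 with no filter and 0 with only the 4 groups compared. The change in transport class level was 0.12 (experiment A), -0.15 (females day 8), -0.44 (males day 29) and -0.34 (males day 8) as a median of the members, against 0.42, 0.12, -0.20 and -0.08 as a mean, and 0.19 in experiment A over members with at least 10 counts in every rat. The cause of each was not tested, and the share of all tested genes called was not computed in these settings.

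The replicate numbers did not pair the rats (mean correlation of same-numbered rats -0.0141 to 0.0417). With a replicate block the mitotic count was 0 at 1500 mkd in females on day 8 and 2 in males on day 8, the transport count was 1 at 750 mkd in males on day 29, and the other counts stayed within 1.5 times.

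Leaving out 1 rat in turn, mitotic counts ranged over 0 to 4 at 1000 and 0 to 2 at 750 mkd in females on day 29, 0 to 7, 0 to 5 and 0 to 3 at 1000, 1500 and 750 mkd in females on day 8, 2 to 9 at 1500 mkd in males on day 29 and 0 to 5 in males on day 8, with trends of 4 to 9 in females on day 8 and 5 to 9 in males on day 29. Transport counts ranged over 1 to 3 in experiment A, 0 to 1 at 1000 and 1 to 3 at 1500 mkd in females on day 29, 0 to 1 at 1500 mkd in females on day 8, and 0 to 3, 0 to 4 and 0 to 2 at 750, 1000 and 1500 mkd in males on day 29, with trends of 2 to 5, 0 to 2 and 2 to 6 in females on day 29, females on day 8 and males on day 29. Other kinesins ranged over 1 to 3 in experiment A, 0 to 1 at 1000 and 1 to 3 at 1500 mkd in females on day 29 and 0 to 1 at 1000 mkd in males on day 29. Interactions ranged over 0 to 4 between experiments and 0 to 4 between the sexes on day 29. Without replicate 3 of the males at 1500 mkd, a setting chosen after the data were seen, spindle partners numbered 6, transport partners 1 and proliferation markers 0. Of all tested genes 6.08% were called there in either direction. Only values that were not called changed sign. For Klc1 in males at 1500 mkd on day 29 (0.04) they were -0.02645 with no filter and -0.001166 with the control and that dose alone, and -0.04583 to 0.07816 leaving out 1 rat. Log2 fold changes at 1500 mkd when 1 rat was left out ranged from -0.121 to 0.01811 for Klc1 in males on day 8, -0.06139 to 0.06936 for Klc4 and -0.0973 to 0.08928 for Kif1c in females on day 8, -0.0683 to 0.09607 for Kif1c, -0.07803 to 0.07891 for Kif13a and -0.1307 to 0.03204 for Kifap3 in females on day 29, and -0.009369 to 0.13 for Kif1c, -0.1735 to 0.03568 for Kif13a and -0.0446 to 0.3515 for Kif21b in males on day 8. They ranged from -0.08108 to 0.5394 for Kif21b and -0.04795 to 0.5222 for Kif5a in females on day 8, from -0.009027 to 0.5123 for Kif3a, -0.02607 to 0.311 for Kif3c and -0.2053 to 0.2847 for Kif5a in males on day 29, and from -0.09378 to 0.0347 for Kif1c at 1000 mkd in experiment A.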
